A study of Danio rerio with 12 samples.

Results

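The Hox genes of zebrafish neuroblastoma cells were taken as every row of the deposited expression table whose gene name matched hoxa, hoxb, hoxc or hoxd followed by a digit. This gave 48 of the 14581 genes in the table. RefSeq names 49 protein-coding Hox genes in the zebrafish assembly GRCz12tu, and of these only hoxc11b was not analysed here. The table covered all 7 zebrafish Hox clusters, with 7 genes of HoxAa, 5 of HoxAb, 11 of HoxBa, 4 of HoxBb, 11 of HoxCa, 3 of HoxCb and 7 of HoxDa, and it covered all 13 paralog groups.

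The libraries came from cells that carried enhanced green fluorescent protein (EGFP) and were sorted out of tumours, 4 libraries from MYCN transgenic and 8 from MYC transgenic zebrafish. MYCN and MYC are related transcription factor oncogenes, and amplified MYCN marks a high-risk form of the childhood tumour neuroblastoma. All fish carried 1 of these transgenes and all cells were EGFP+, so there was no group of normal neuroblasts. Strain, age, the promoter that drives the transgenes and whether tumours were pooled are not given in the sources used here. Nor do the labels say that each library came from its own fish, so p-values measure the spread between these libraries.

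Hox genes encode homeodomain transcription factors that tell a cell where along the head-to-tail axis it lies. They sit in clusters, and their order along a cluster follows the order of their expression domains: low-numbered paralog groups act in the hindbrain and neck, middle groups in the trunk, and high-numbered groups towards the tail and in the distal fin. Teleost fish duplicated their genome, which left "a" and "b" copies of the ancestral clusters, and retinoic acid is a classical inducer of the low-numbered genes. Neuroblastoma arises from sympathoadrenal cells of the neural crest, a migratory embryonic population that carries Hox expression from its level of origin.

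Values are FPKM, fragments scaled by transcript length and library depth, as the authors deposited them, which allows levels of different genes to be set side by side. The depth in reads is unknown. Per library, 8688 to 9844 genes reached 1 FPKM, and no pair of libraries held identical values. Defining markers of the labelled cell type were abundant: the 9 matched noradrenergic markers summed to 5787 to 7652 FPKM in MYCN and 3515 to 5161 FPKM in MYC libraries, led by dbh, which makes noradrenaline, and the sympathetic transcription factor gene hand2. These sums did not overlap, and 3 of the 9 fell in MYC by the test described below: hand2 (log2 fold change -1.04), gata2a (-1.01) and phox2bb (-2.21). Of all genes tested, 7.63% fell. Alternative fits kept these 3 calls in 20, 13 and 22 of 25 cases. The other 6 markers were not called. Of these, dbh, th, phox2a and gata3 had negative log2 fold changes, while those of ddc (0.73) and slc18a2 (0.65) were positive. Replicate numbers 1 to 4 recur in both groups, so MYC 1 to 4 and MYC 5 to 8 were also compared apart. Genes listed at 0 in 4 libraries and at 1 FPKM or more in each of the other 8 numbered 7 for MYCN 1 to 4, 1 for MYC 1 to 4 and 0 for MYC 5 to 8. All MYCN libraries fall on 1 side of the first split, where the transgene and any batch cannot be told apart. The libraries MYCN 3, MYC 3 and MYC 7 were each the lowest of their set for 48.6%, 46.6% and 54.4% of the 9606 genes tested below.

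Hox expression was confined, at a mean of at least 1 FPKM over the 12 libraries, to 15 genes of 3 clusters. These were 8 of the 11 HoxBa genes, hoxb2a to hoxb9a, 5 of the 11 HoxCa genes (hoxc3a, hoxc4a, hoxc5a, hoxc6a and hoxc8a) and 2 of the 7 HoxDa genes (hoxd3a and hoxd4a). Taken by group, 15 genes were on in MYCN and 14 in MYC, since hoxb1a was on in MYCN alone, hoxc5a in MYCN alone and hoxb2a in MYC alone by this limit. Single MYCN libraries held 14 to 16 Hox genes at 1 FPKM or more and single MYC libraries 13 to 15.

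By paralog group, expression lay in groups 3 to 9. There, 14 of the 25 genes were on, and they made up 14 of the 16 genes of these groups in HoxBa, HoxCa and HoxDa and 0 of the 9 in the other clusters. The exceptions within the expressed clusters were hoxc9a and hoxd9a, so that hoxb9a was the only one of the 5 group 9 genes that was on. In groups 1 and 2, 1 of 6 genes was on. None of the 17 genes of groups 10 to 13, which pattern the tail and the distal fin, was on, and the highest single value among them was 0.24 FPKM, for hoxc10a.

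**Figure D1:**
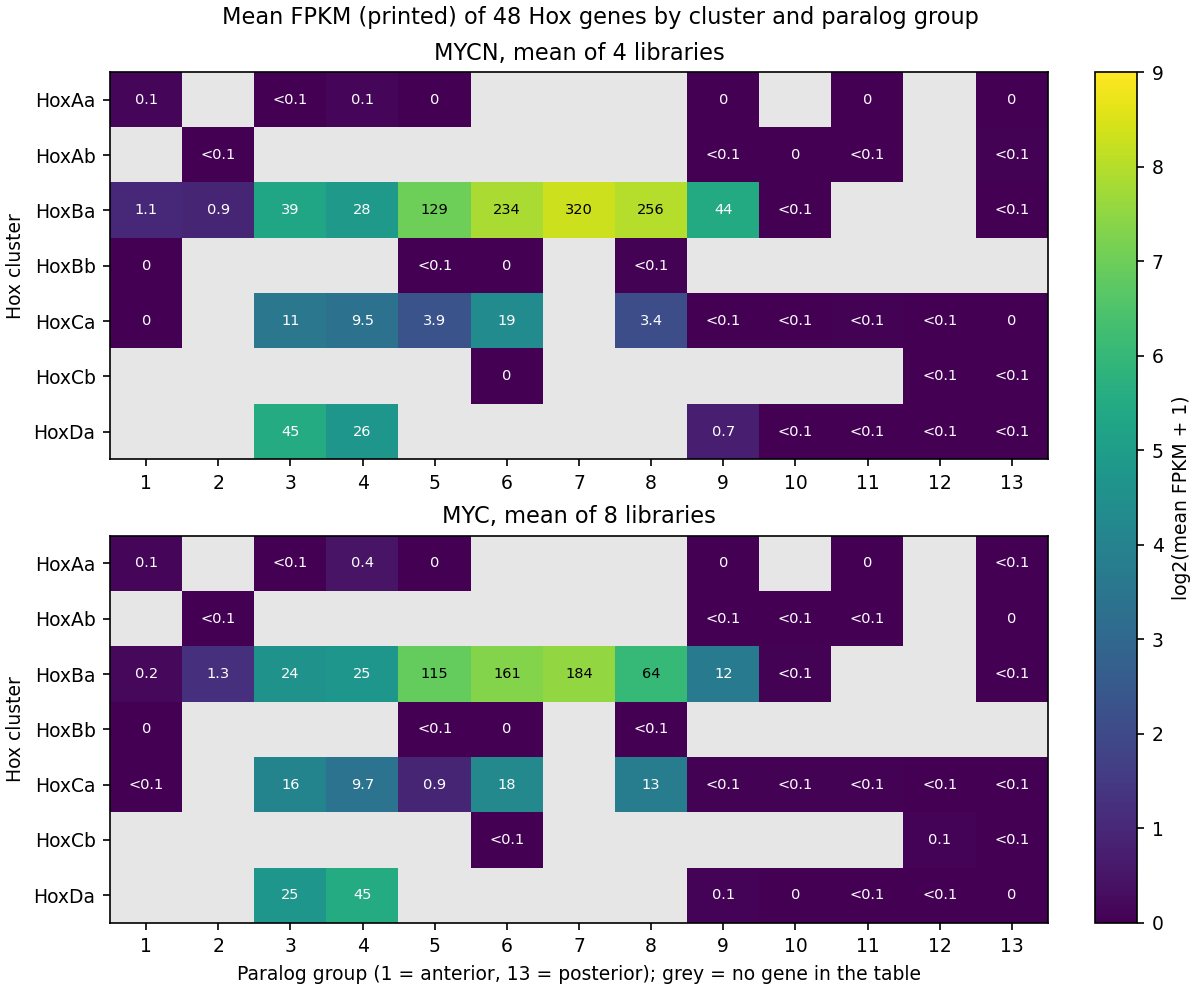
Mean FPKM of each Hox gene (printed, with log2 of the mean + 1 as colour) in MYCN and MYC libraries, with clusters as rows and paralog groups as columns. The 15 genes on over all 12 libraries lie in HoxBa, HoxCa and HoxDa between groups 2 and 9.

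The duplicate "b" clusters were nearly silent: none of the 12 genes of HoxAb, HoxBb and HoxCb was on and none exceeded 0.23 FPKM in any library. The HoxA genes were also low in both of their clusters. None of these 12 genes was on, and the highest value, 1.26 FPKM, was that of hoxa4a in MYC 4. A total of 5 members (hoxa5a, hoxa9a, hoxa11a, hoxb1b and hoxb6b) were listed at 0 in all 12 libraries, which in a table without counts need not mean that no RNA was made.

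HoxBa carried most of the Hox RNA. The FPKM of all Hox genes summed to 1350, 1736, 751 and 845 in MYCN 1 to 4 and to a lowest, median and highest value of 367, 761 and 932 in MYC, which is 0.0946% to 0.2002% and 0.0470% to 0.133% of all FPKM. HoxBa gave 86.7% to 92.1% of the Hox sum in MYCN (89.3 ± 2.36, SD, n = 4) and 79.7% to 84.8% in MYC (82.1 ± 1.73, n = 8). The groups did not overlap in this share. For scale, 9.33% of the genes tested below did not overlap in their own levels, and no such rate was computed for shares of a sum. HoxCa gave 3.64% to 5.17% and 5.10% to 12.7%, and HoxDa 4.23% to 9.24% and 4.97% to 12.6%, and in both the groups overlapped.

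In every library the most abundant Hox gene was a HoxBa gene. It was hoxb7a in 7 libraries, hoxb6a in 4 and hoxb8a in 1, MYCN 1. Among all 14581 genes ranked by mean FPKM, hoxb7a stood at place 472, hoxb6a at 565, hoxb8a at 866 and hoxb5a at 930. Along the cluster the mean level was below 2 FPKM at hoxb1a and hoxb2a and intermediate at hoxb3a and hoxb4a. It climbed from there to hoxb7a (229 FPKM over the 12 libraries), fell at hoxb8a (128 FPKM) and hoxb9a (22.7 FPKM) and was near 0 at hoxb10a and hoxb13a.

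**Figure D2:**
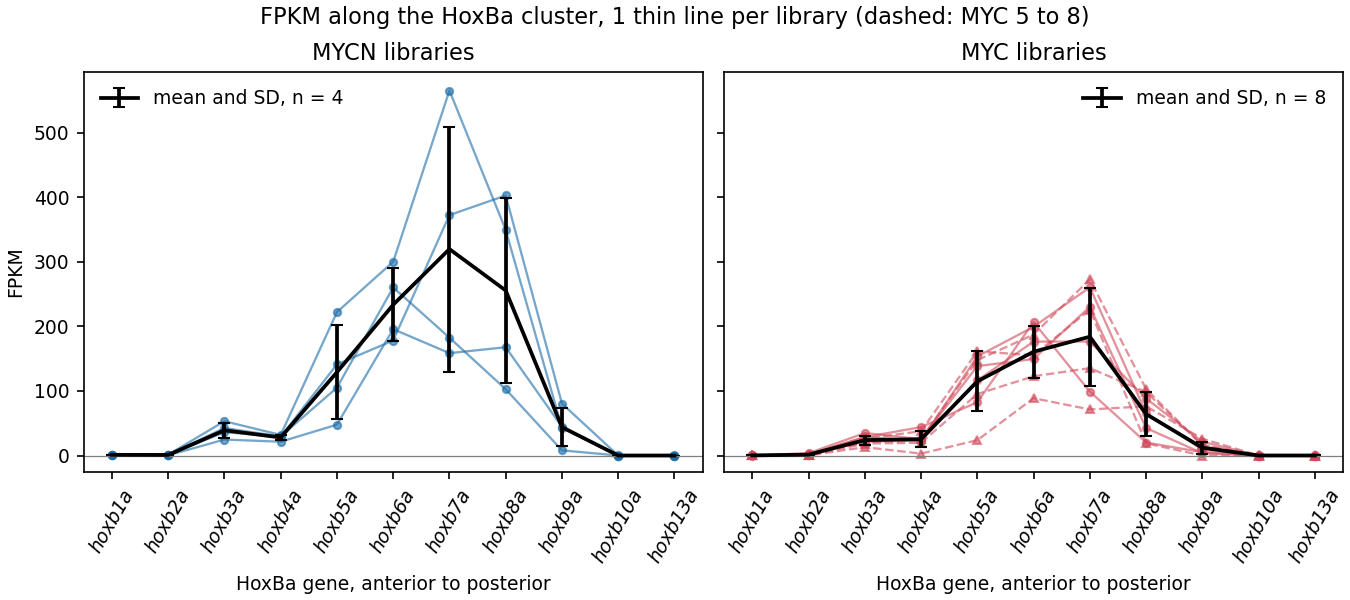
FPKM of the HoxBa genes, in paralog order, 1 thin line per library (dashed for MYC 5 to 8) and the group mean with its SD in black. Both means peak at hoxb7a, and at hoxb8a the MYCN mean is 256 and the MYC mean 64.2 FPKM.

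Differences between the transgenes were tested with limma on log2(FPKM + 1), MYC minus MYCN, for the 9606 genes that reached 1 FPKM in at least 4 libraries. A gene is said to have risen or fallen where it was higher or lower in MYC with a Benjamini-Hochberg adjusted p under 0.05, and a log2 fold change on this scale understates the ratio of genes near 0. Of all genes tested, 13.4% were called, 5.77% as higher and 7.63% as lower in MYC. Among the 48 Hox genes, 15 passed the filter, of which 1 rose (hoxc8a), 2 fell (hoxb8a and hoxc5a) and 12 were not called. That share, 3 of 15, lies near the background. The median log2 fold change of the 15 was -0.37, against -0.05 for all tested genes, and 10 of the 15 had a negative sign. When MYCN 1 to 4 and MYC 1 to 4 were fitted in pairs by their number (the replicate block), limma called 23.5% of all genes and again 3 Hox genes, but these were hoxb8a, hoxd3a and hoxd4a. In that fit, and against MYC 1 to 4 without the block, the median of the 15 was 0.0074 with 8 of the 15 positive, against -0.09 for all genes. Against MYC 5 to 8 the median of the 15 was -0.75, with -0.0087 for all genes. The lower median of the Hox genes was thus not seen against MYC 1 to 4. For no tested Hox gene did the MYCN and MYC libraries separate completely, which 9.33% of all tested genes did, 5.6% with MYCN and 3.73% with MYC as the higher group.

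**Figure D3:**
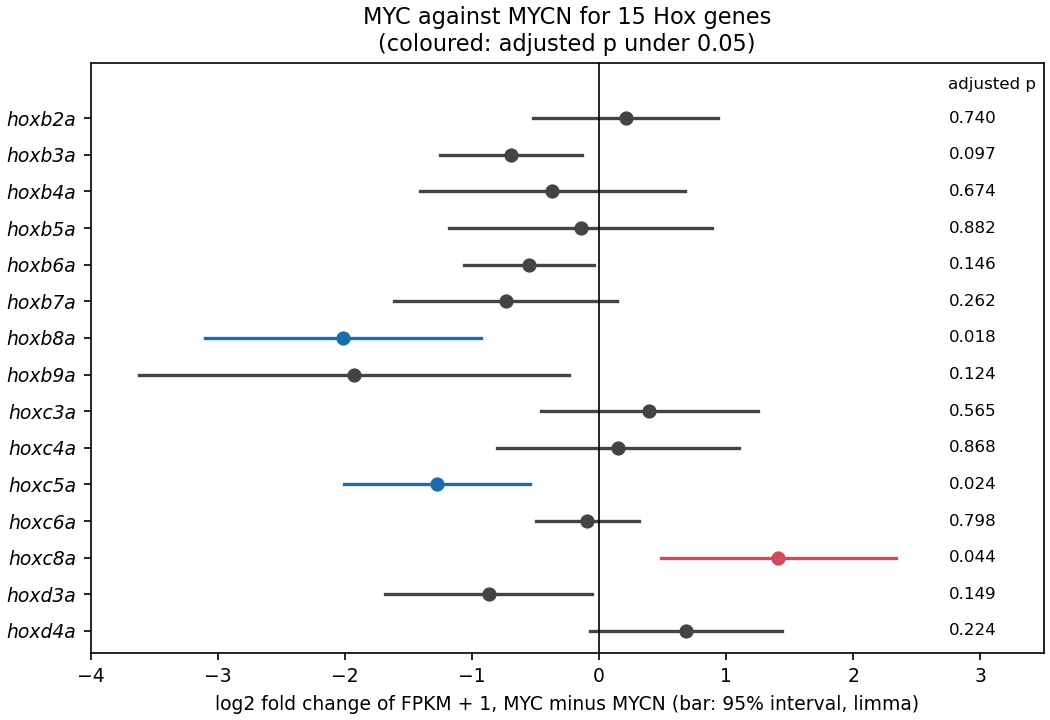
Log2 fold change of FPKM + 1, MYC minus MYCN, with its 95% confidence interval for the 15 tested Hox genes. The called genes are hoxb8a and hoxc5a, below 0, and hoxc8a, above 0.

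Among the tested Hox genes, the log2 fold change furthest from 0 was that of hoxb8a (with smaller pseudocounts that of hoxb9a), whose mouse counterpart is needed for normal grooming behaviour. It stood at 403, 349, 168 and 103 FPKM in MYCN 1 to 4, while the MYC libraries had a lowest, median and highest value of 18.9, 71.1 and 103 FPKM. Values were high in MYCN 1 and 2, and the groups overlapped only in that MYC 6, at 103.1 FPKM, passed MYCN 4, at 102.7 FPKM. The mean fell from 256 ± 143 to 64.2 ± 33.5 FPKM, a log2 fold change of -2.01 ± 0.51 (SE, limma, adjusted p = 0.0182). The call was lost without MYCN 1 (adjusted p = 0.0714) or MYCN 2 (adjusted p = 0.0689) and against MYC 5 to 8 alone (adjusted p = 0.0884), with log2 fold changes from -2.38 to -1.73 over all alternatives.

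Next to it, hoxb9a, a marker of thoracic levels in the mouse, had a similar fold change with far more scatter. It stood at 80.5, 42.8, 44.4 and 7.98 FPKM in MYCN and at 0, 12.4 and 26.0 FPKM (lowest, median, highest) in MYC, with the 0 in MYC 5. MYCN 1, 2 and 3 were above every MYC library and MYCN 4 lay among them. The means were 43.9 ± 29.6 and 12.1 ± 9.14 FPKM and the log2 fold change was -1.93 ± 0.79 (limma, adjusted p = 0.124), which was not called.

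The genes hoxb5a, hoxb6a and hoxb7a, on the anterior side of hoxb8a, overlapped more broadly. For hoxb7a, whose promoter is used in mice to mark the ureteric bud, the MYCN libraries had 373, 566, 159 and 183 FPKM and the MYC libraries 71.3, 201 and 273. MYCN 1 and 2 were above all MYC libraries and MYCN 3 and 4 within their range (log2 fold change -0.73 ± 0.41, limma, adjusted p = 0.262). Levels of hoxb6a were 178, 300, 196 and 260 FPKM in MYCN and 88.8, 166 and 207 FPKM in MYC. Only MYCN 2 and MYCN 4 exceeded the highest MYC library (-0.55 ± 0.24, limma, adjusted p = 0.146). For hoxb5a, whose human counterpart acts on RET in enteric neural crest, values were 141, 222, 47.8 and 105 FPKM in MYCN and 23.7, 127 and 161 FPKM in MYC. MYC 7 was the lowest of all 12 libraries for these 3 genes. The difference in hoxb5a was -0.14 ± 0.48 with a 95% interval of -1.18 to 0.89 (limma, adjusted p = 0.882), so changes of about that size in either direction were within the error.

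The anterior genes of HoxBa were lower in level. A gene of hindbrain identity, hoxb3a, stood at 36.1, 53.1, 24.7 and 42.6 FPKM in MYCN and 12.97, 23.8 and 34.8 FPKM in MYC. MYCN 1, 2 and 4 were above all MYC libraries and MYCN 3 was within them. Its log2 fold change was -0.69 ± 0.26 (limma, adjusted p = 0.0975), and it passed the threshold without MYCN 3 (adjusted p = 0.0483), with library weights (adjusted p = 0.0213) and with each library scaled to a common sum (adjusted p = 0.0406). For hoxb4a, whose human counterpart expands blood stem cells when overexpressed, the MYCN values of 29.0, 31.9, 21.4 and 29.5 FPKM lay inside the MYC range of 2.94 (MYC 7) to 44.0 FPKM with a median of 24.3 (adjusted p = 0.674). Lowest of the expressed HoxBa genes was hoxb2a, which acts in the hindbrain and the second pharyngeal arch, at 1.13, 1.34, 0.299 and 0.773 FPKM in MYCN and 0.214, 1.22 and 3.60 FPKM in MYC (adjusted p = 0.740). The groups overlapped throughout.

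One Hox gene separated the groups without passing the filter. The hindbrain gene hoxb1a, which gives the fourth rhombomere its identity, stood at 1.35, 1.06, 0.689 and 1.12 FPKM in MYCN and at 0, 0.155 and 0.397 FPKM in MYC. Every MYCN library was above every MYC library. Of the genes that passed the filter 9.33% separated completely, and the share among genes below the filter, where hoxb1a lies, was not computed. The means were 1.06 ± 0.274 and 0.152 ± 0.117 FPKM. With no filter, where limma called 9.85% of the genes tested, its log2 fold change was -0.83 ± 0.10 (adjusted p = 0.000361). It missed the filter because only 3 libraries reached 1 FPKM. The number of fragments behind these low values is not known.

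**Figure D4:**
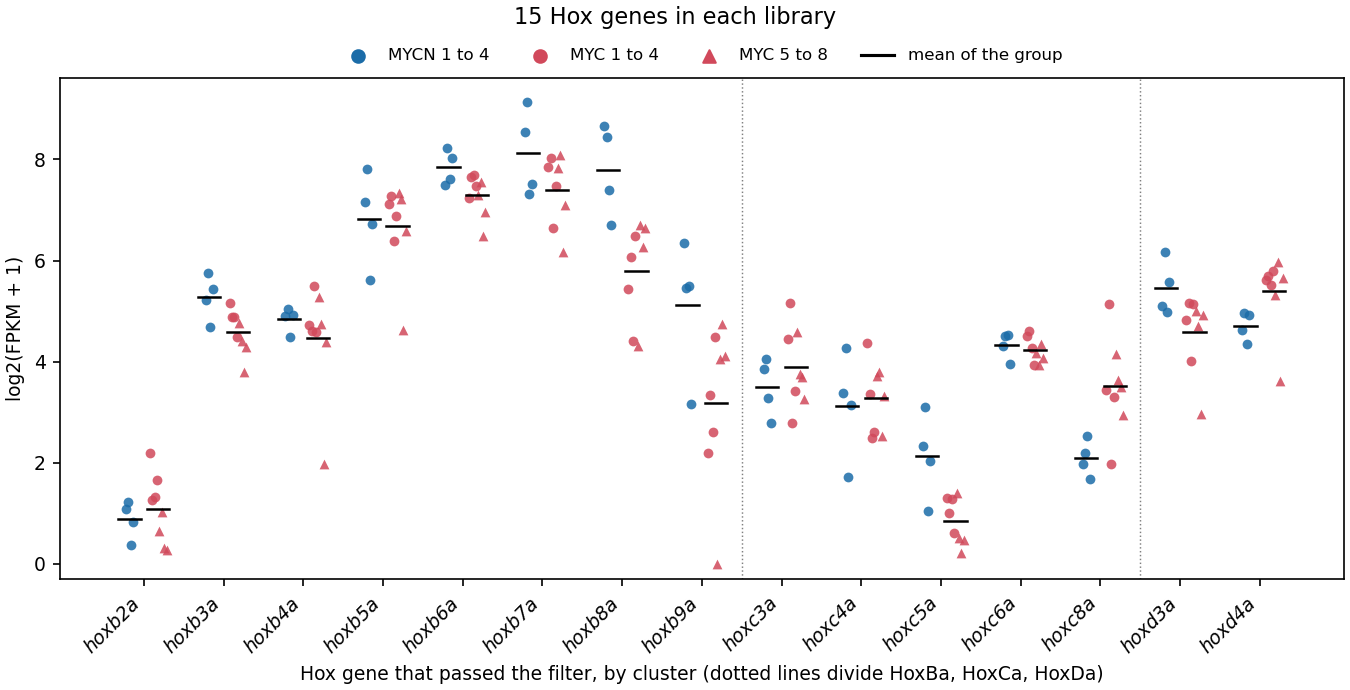
log2(FPKM + 1) of the 15 tested Hox genes, with 1 point per library (triangles for MYC 5 to 8) and bars for the group means. For hoxb8a and hoxc5a most MYC points lie below the MYCN points, for hoxc8a most lie above, and for each of these 3 genes at least 1 library overlaps the other group.

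In HoxCa, 2 genes were called, in opposite directions. The gene hoxc8a, which in the mouse helps to specify brachial motor neurons, stood at 2.96, 3.58, 4.79 and 2.204 FPKM in MYCN and at 2.95, 10.05 and 34.3 FPKM in MYC. MYC 3 lay inside the MYCN range, the other MYC libraries lay above it and MYC 2 was far above the rest. The mean rose from 3.38 ± 1.09 to 12.6 ± 9.60 FPKM (log2 fold change 1.41 ± 0.43, limma, adjusted p = 0.0438). This call was the weakest of the 3: it was lost when any single MYCN library was left out (adjusted p from 0.0529 to 0.139). It was also lost without MYC 1, 4, 5, 6 or 7 (0.0567 to 0.0698), with no filter (0.0752) and with a filter of 0.1 FPKM (0.0538). With the replicate block the adjusted p was 0.0826, and on the same libraries without the block, MYCN against MYC 1 to 4, it was 0.1545.

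For hoxc5a, which in the mouse supports phrenic motor neurons, the MYCN libraries had 4.06, 7.54, 1.08 and 3.08 FPKM and the MYC libraries 0.167, 0.776 and 1.66 FPKM. Only MYCN 3 lay within the MYC values. The mean fell from 3.94 ± 2.70 to 0.887 ± 0.578 FPKM (log2 fold change -1.27 ± 0.34, limma, adjusted p = 0.0243). With the smallest pseudocount tried the log2 fold change was -2.17. Without MYCN 1, MYCN 2 or MYCN 4 the call was lost (adjusted p = 0.0733, 0.0964 and 0.0619), as it was with the replicate block (adjusted p = 0.0669) and against MYC 1 to 4 (adjusted p = 0.119) or MYC 5 to 8 (adjusted p = 0.0605).

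The other HoxCa genes did not pass the test. The steadiest Hox gene was hoxc6a, a marker of forelimb levels in mice, at 18.9, 21.7, 21.9 and 14.6 FPKM in MYCN and 14.3, 17.7 and 23.5 FPKM in MYC. All MYCN values lay within the MYC range, and the log2 fold change was -0.09 ± 0.19 with a 95% interval of -0.50 to 0.31 (limma, adjusted p = 0.798). The gene hoxc4a stood at 9.41, 18.3, 2.28 and 7.86 FPKM in MYCN and 4.597, 9.10 and 19.7 FPKM in MYC (adjusted p = 0.868), with MYCN 3 the lowest of all 12 libraries. For hoxc3a, which has no counterpart in the mouse and human clusters, values were 13.5, 15.5, 8.73 and 5.88 FPKM in MYCN and 5.95, 12.2 and 34.6 FPKM in MYC (adjusted p = 0.565). The groups overlapped for each of these 3 genes.

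The 2 expressed HoxDa genes differed between the groups in opposite directions without being called. Levels of hoxd3a, whose mouse counterpart shapes the atlas vertebra, were 33.4, 71.4, 30.6 and 46.5 FPKM in MYCN and 6.81, 28.2 and 34.8 FPKM in MYC. MYCN 2 and 4 were above all MYC libraries and MYC 7 was the lowest (log2 fold change -0.87 ± 0.38, limma, adjusted p = 0.149). Levels of hoxd4a, whose mouse counterpart has a retinoic acid response element, were 23.7, 30.1, 19.5 and 29.2 FPKM in MYCN and 11.3, 48.8 and 61.4 FPKM in MYC. MYC 7 lay below every MYCN library and the other MYC libraries lay above them all. The log2 fold change of hoxd4a was 0.69 ± 0.35 (limma, adjusted p = 0.224), and without MYC 7 it was 0.94 ± 0.18 (adjusted p = 0.00493). With the replicate block both were called (hoxd3a -0.68, adjusted p = 0.0359, and hoxd4a 0.94, adjusted p = 0.00740).

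Levels of expressed genes were also set against each other within a library, which removes any scaling between libraries. Of the 12 ratios between expressed cluster neighbours, 2 separated the groups without overlap, against 10.7% of 7863 ratios between chromosome neighbours over the genome. The ratio of hoxd4a to hoxd3a was 0.709, 0.422, 0.635 and 0.629 in MYCN 1 to 4 and had a lowest, median and highest value of 1.26, 1.68 and 2.97 in MYC, so the more abundant of the 2 genes was hoxd3a in each MYCN and hoxd4a in each MYC library. MYC 7, where both genes were low, had a ratio of 1.66, close to the median of its group. The ratio of hoxc5a to hoxc4a was 0.392 to 0.473 in MYCN and 0.0333 to 0.312 in MYC. By contrast, the ratio of hoxb8a to hoxb7a was 0.562 to 1.08 in MYCN and 0.0836 to 1.07 in MYC, and overlapped because of MYC 7 and MYC 8. No test was made on ratios. The annotated spans of hoxd3a and hoxd4a overlap, as do those of hoxc4a and hoxc5a with hoxc3a. Both separating ratios may therefore depend on how reads were divided between genes, which is taken up below.

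**Figure D5:**
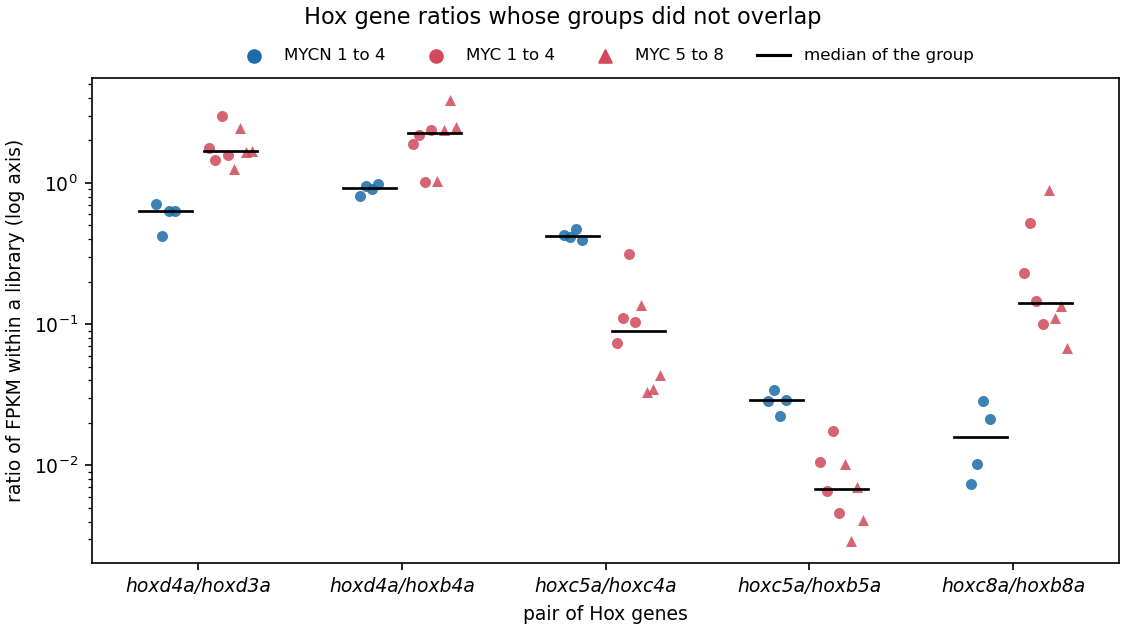
Ratio of FPKM between Hox genes of a library (log axis) for the 5 pairs of genes that separate the groups. Each point is a library, bars are group medians, and the hoxd4a to hoxd3a ratio is below 1 in all 4 MYCN and above 1 in all 8 MYC libraries.

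Between members of a paralog group, 3 of 9 ratios separated the groups without overlap, against 10.6% of the ratios of any 2 tested genes above 0 in every library. In group 8, hoxc8a relative to hoxb8a was 0.00735 to 0.0285 in MYCN and 0.0678 to 0.889 in MYC, so hoxb8a stayed the more abundant in all 12 libraries. In group 4, hoxd4a relative to hoxb4a was 0.815 to 0.990 in MYCN and 1.02 to 3.84 in MYC. In group 5, hoxc5a relative to hoxb5a was 0.0226 to 0.0340 in MYCN and 0.00292 to 0.0174 in MYC. Each of these ratios holds a gene already described above and gives no separate evidence. The mean paralog group weighted by FPKM was 5.87 to 6.66 in MYCN and 5.54 to 6.45 in MYC over all Hox genes, and the groups overlapped, while within HoxDa it was 3.30 to 3.56 and 3.59 to 3.75, which mainly restates the hoxd4a to hoxd3a ratio.

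Of the members below the filter, 3 had a group mean of at least 0.2 FPKM. Besides hoxb1a these were hoxa4a, at 0.219, 0.0543, 0.0155 and 0.0165 FPKM in MYCN and 0, 0.374 and 1.26 FPKM in MYC, and hoxd9a, at 0.0479, 0.0530, 0.283 and 2.34 FPKM in MYCN and 0, 0.0219 and 0.360 FPKM in MYC. For both, single libraries (MYC 4 for hoxa4a and MYCN 4 for hoxd9a) held the highest value and the groups overlapped. The other 25 did not exceed 0.6245 FPKM in any library. They were hoxa1a, hoxa3a, hoxa13a, hoxa2b, hoxa9b, hoxa10b, hoxa11b, hoxa13b, hoxb10a, hoxb13a, hoxb5b, hoxb8b, hoxc1a, hoxc9a, hoxc10a, hoxc11a, hoxc12a, hoxc13a, hoxc6b, hoxc12b, hoxc13b, hoxd10a, hoxd11a, hoxd12a and hoxd13a. Among them is hoxc9a, whose human counterpart promotes neuronal differentiation in neuroblastoma cell lines.

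The 2 sets of MYC libraries were compared with each other in the same way. Of the 15 tested Hox genes, limma called 0 between MYC 5 to 8 and MYC 1 to 4, where 0.552% of all tested genes were called. At an unadjusted p under 0.05 the count was 1, hoxb2a, with a mean of 2.16 FPKM in MYC 1 to 4 and 0.517 FPKM in MYC 5 to 8 (log2 fold change -1.04 ± 0.28, adjusted p = 0.151). Against MYC 1 to 4, hoxb8a and hoxd4a were called among the MYC minus MYCN differences, where limma called 9.49% of all genes, and against MYC 5 to 8 only hoxc8a, where it called 8.85%.

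Hox proteins bind DNA together with Pbx and Meis (TALE) partners, and these were expressed. Of the 12 measured cofactor genes of a list of 14, 10 were tested, of which 2 rose, 1 fell and 7 were not called (median log2 fold change -0.42). Over all tested genes 13.4% were called. The gene pknox2, a Meis-related partner, stood at 0.0721 to 0.437 FPKM in MYCN and 1.88 to 12.2 FPKM in MYC, with no overlap. It rose by 2.50 ± 0.37 on the log2 scale (limma, adjusted p = 0.00065). It passed the filter through MYC libraries alone, and 3.73% of all tested genes likewise separated with MYC as the higher group. The mean of meis2a rose from 4.93 ± 5.46 to 23.2 ± 8.17 FPKM (2.44 ± 0.44, adjusted p = 0.00284), and that of its relative pknox1.1 fell from 19.9 ± 6.22 to 10.7 ± 2.84 FPKM (-0.82 ± 0.25, adjusted p = 0.0427), a call that 13 of 25 alternatives kept. The most abundant partner was pbx1a, at 68.1 and 44.1 FPKM (adjusted p = 0.313).

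In a list of positional inputs upstream of Hox genes, no tested gene passed the test. Of 18 measured genes for retinoic acid signalling, Cdx factors and hindbrain inducers, 5 were tested and 0 called by limma (median log2 fold change -0.14). The others were below the filter. Among these the retinoic acid enzyme gene cyp26c1, named after its values were seen, stood at 0.0926 to 10.9 FPKM in MYCN, highest in MYCN 3. In MYC it stood at 0.0319 to 0.891 FPKM. The Cdx genes, which set posterior Hox expression in embryos, were below the filter and did not exceed 0.531 FPKM. Among Trithorax genes, which keep Hox genes active, 6 of 12 listed were measured, all 6 were tested and 0 were called. Of 20 measured Polycomb genes, which keep Hox genes silent, 1 rose, 3 fell and 16 were not called (median -0.32). The share to set beside the counts of these lists is the 13.4% of all tested genes that were called. The histone methyltransferase gene ezh2 fell from 7.58 to 2.61 FPKM (-1.27, limma, adjusted p = 0.00189). Its partners suz12a (-0.96, adjusted p = 0.00556) and jarid2b (-1.28, adjusted p = 0.00687) also fell, while cbx7a rose from 53.3 to 122 FPKM (1.12, adjusted p = 0.0115). Related genes were not called: ezh1 (0.79, limma, adjusted p = 0.0801), suz12b (-0.14, 0.761), eed (-0.34, 0.608) and mtf2 (-0.53, 0.0656).

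Genes of the head in front of the Hox domain were mostly off. Of 20 measured forebrain and midbrain identity genes, 3 were tested, 2 rose and 1, otx2a, was not called, with means of 2.02 ± 1.68 (MYCN) and 0.567 ± 0.533 FPKM (MYC) (log2 fold change -0.83 ± 0.36, limma, adjusted p = 0.145). That MYC mean joins 2 sets that did not overlap, MYC 1 to 4 at 0.946 to 1.18 FPKM and MYC 5 to 8 at 0 to 0.140 FPKM. The highest value of the list, 23.3 FPKM, was that of emx1 in MYCN 1, a gene below the filter and named after its values were seen. The gene otx2b stood at 0 to 0.0187 FPKM in MYCN and at 0.193, 2.71 and 5.80 FPKM in MYC (1.71 ± 0.42, limma, adjusted p = 0.0154), and otx1 at 0 to 0.0233 FPKM in MYCN and 0.184, 0.920 and 2.87 FPKM in MYC (0.93 ± 0.28, adjusted p = 0.0402). For otx2b and otx1 every MYC library was above every MYCN library. Among all tested genes 3.73% separated in this way and 5.77% rose. Both genes passed the filter through MYC libraries alone, so the count of 2 that rose depends on how members came to be tested. The call of otx1 was lost in 12 of 24 alternatives (limma, adjusted p = 0.0574 with the replicate block). Of 15 other measured homeobox genes of positional identity outside the clusters, none reached 1 FPKM in any library.

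Markers of other cells that a sort can hold, some of which express Hox genes, were read beside these results. In bulk RNA, fewer cells of a type and less RNA per cell cannot be told apart. Of 14 measured spinal neuron markers none reached 1 FPKM in any library, with eng1b and lhx1a the highest. Kidney tubule markers (led by slc20a1a and wt1b) summed to 1.603 to 5.35 FPKM in MYCN and 1.55 to 8.35 FPKM in MYC. Mesenchyme markers (col1a1b and twist1a) summed to 3.83 to 8.87 and 0.527 to 5.73 FPKM, and muscle markers (mylpfb and ckmb) to 23.7 to 27.7 and 15.1 to 59.7 FPKM. The sums of these lists overlapped between the groups, but col1a1b itself fell without overlap, from 2.52 to 4.13 FPKM in MYCN to 0.171 to 1.70 FPKM in MYC (limma, adjusted p = 0.00112). Of all tested genes 5.6% separated with MYCN as the higher group. Of the 13 measured mesenchyme markers only col1a1b was tested, and its 4 MYCN libraries met the filter by themselves. Its fall therefore depends on how members came to be tested.

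Blood markers differed more. Leukocyte markers, led by lyz and lcp1, summed to 64.4 to 111 FPKM in MYCN and 165 to 297 FPKM in MYC without overlap. Of 9 tested members 5 rose, against 5.77% of all tested genes. These were lcp1, rac2, spi1b, mfap4 and mpeg1.1, so lyz was not among them. Alternative fits kept the call of lcp1 in 21 of 25 cases and that of mpeg1.1 in 19 of 24. The calls of rac2, spi1b and mfap4 were kept in all 25. Against MYC 5 to 8 alone lcp1 was not called (limma, adjusted p = 0.139). Blood progenitor markers, led by myb and the cofactor meis1b, summed to 4.78 to 8.08 and 9.13 to 18.5 FPKM, also without overlap. Of 3 tested members 1 rose, myb (log2 fold change 1.72), against 5.77% of all tested genes. The other 2 were not called, among them meis1b (0.20, limma, adjusted p = 0.725). No rate of separation was computed for sums of a list. Erythroid markers, led by hbaa1 and hbba2, overlapped (305 to 456 and 33.7 to 983 FPKM), as did Schwann cell markers led by fabp7a and s100b (2.13 to 5.03 and 0.289 to 2.41 FPKM), endothelial markers led by tek and plvapb (1.11 to 2.40 and 2.36 to 5.80 FPKM) and steroidogenic interrenal markers led by star and nr5a1a (10.02 to 18.2 and 6.06 to 53.8 FPKM). No marker list held a gene at 0 in all libraries. Within the Schwann list fabp7a fell without overlap (1.90 to 4.12 and 0.0577 to 1.097 FPKM, limma, adjusted p = 0.00175), where 5.6% of all tested genes separated with MYCN higher. Only this 1 of the 9 measured Schwann markers was tested, and its 4 MYCN libraries met the filter by themselves. The count of 1 that fell therefore depends on how members came to be tested. The part of these cells, and of the lower sum of noradrenergic markers, in the Hox differences was not tested.

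Neighbouring Hox genes can share reads. In RefSeq GRCz12tu the span of hoxb3a overlaps those of hoxb4a, hoxb5a and hoxb6a, that of hoxc3a overlaps 5 others (hoxc4a, hoxc5a, hoxc6a, hoxc8a and hoxc9a), and that of hoxd3a overlaps hoxd4a. How the authors divided reads between overlapping transcripts is not given in the sources used here, so the values of these genes are uncertain to that extent, while hoxb7a, hoxb8a, hoxb9a and hoxb1a overlap no other Hox span. The 9 rows for microRNA genes of the Hox clusters (mir10 and mir196) were all listed at 0. In values without fragment counts this need not mean that no such RNA was made.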

How the data were processed

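RNA of 12 libraries of sorted EGFP+ cells (4 MYCN, 8 MYC) was depleted of ribosomal RNA and sequenced in pairs, per the labels' protocols. The authors deposited FPKM values per gene and library. The submitters' processing notes name cutadapt, TopHat2 2.0.11 and Cufflinks 2.2.1. Build, annotation and the use of strand are not given in the sources used here. FPKM holds no fragment counts, so errors come from the spread between libraries alone, with no counting interval.

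Genes with at least 1 FPKM in 4 of 12 libraries were tested. On the scale of log2(FPKM + 1), these 9606 genes were fitted together with limma 3.58.1 in R 4.3.3 (empirical Bayes with a trend, two-sided, Benjamini-Hochberg adjustment, threshold 0.05), which was tested on simulated data. Errors are SD for FPKM and SE for fold changes. The members and lists were chosen with earlier results of these data known. All Hox genes were accounted for, called members of the pathway lists (up to 4 each) and the 2 highest marker genes of each list were named. Of the 235 symbols in 17 lists, 205 had a row in the table, 18 of them under another name. In the table, otx1 is paired with otx1b, otx2a with otx1a, otx2b with otx2, meis1b with meis1 and mpeg1.1 with mpeg1. Alternatives changed the pseudocount, filter, scaling, library weights, sets and left-out libraries.

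The labels give MYCN 1 to 4 and MYC 1 to 4 the same numbers but do not say what these stand for. Deviations from the set means across the genes tested correlated between libraries of the same number at 0.363, 0.471, 0.564 and 0.163, all above 0.1. Between libraries of different numbers the correlations ran from -0.4465 to 0.2227. MYCN 4 correlated more with MYC 3 (0.182) than with MYC 4 (0.163), so a value above 0.1 does not by itself mark a pair. The numbers were taken as pairs without being established as such, and the block is given where it changes a call.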

Additional observations from a re-analysis of the deposited data

Results flagged for a closer look

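Of 36 groups of Hox values examined for a library far from the rest (Dixon's criterion), 6 held one. For normally distributed values about 1 in 20 groups would hold one, a rate that need not apply to these FPKM values. The flagged hoxa4a, hoxb1a and hoxd9a are genes below the filter. In MYC, hoxc8a stood at 34.3 FPKM in MYC 2, hoxd4a at 11.3 FPKM in MYC 7, hoxa4a at 1.26 FPKM in MYC 4, hoxb1a at 0.397 FPKM in MYC 2 and hoxd9a at 0.360 FPKM in MYC 5. In MYCN, hoxd9a stood at 2.34 FPKM in MYCN 4. All of these were the highest library of their group except hoxd4a in MYC 7, which was the lowest. Without MYC 7 the difference in hoxd4a passed the threshold (log2 fold change 0.94, limma, adjusted p = 0.00493).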

How the results depend on the processing

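The number of Hox genes called was 3, of 15 tested. It was 1 against MYC 5 to 8 alone (8.85% of all genes), 3 with the replicate block (23.5%) and 5 without MYCN 3, MYC 3 and MYC 7 (13.9%), an alternative chosen after seeing the data (hoxb3a, hoxb8a, hoxc5a, hoxc8a and hoxd4a). Leaving out 1 library at a time gave 0 to 3 calls, with 0 without MYCN 1 (8.46% of all genes) or MYCN 2 (8.48%) and 1 without MYCN 4 (7.36%), and a median log2 fold change between -0.55 and -0.11. Against MYC 5 to 8 that median was -0.75, whereas it was 0.0074 with the block and also without it for MYC 1 to 4. The number of genes on ranged over the same left-out libraries from 14 to 15 over all libraries, from 14 to 16 in MYCN and stayed at 14 in MYC. Over the alternatives hoxb8a was called in 22 of 25 fits, hoxc5a in 18 of 24 and hoxc8a in 12 of 25, each with an unchanged direction.

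Uncalled genes changed sign as follows. The log2 fold change of hoxc4a was -0.024 with a common sum and -0.070 without MYCN 3, MYC 3 and MYC 7, and ran from -0.32 to 0.53 over single left-out libraries, below 0 without MYCN 3 or MYC 1. With the replicate block and against MYC 1 to 4 it was 0.010 for hoxb4a, 0.091 for hoxb5a and 0.0074 for hoxc6a. For hoxb5a it ran from -0.55 to 0.18 over single left-out libraries, above 0 without MYCN 2 or MYC 7, and for hoxb2a -0.31 against MYC 5 to 8. The cause was not tested. A common sum moved the median of all genes from -0.05 to -0.22, with 369 genes higher and 902 lower in MYC in place of 554 and 733. The fall of hoxc5a was -2.17 with the smallest pseudocount. Among the 15 tested Hox genes, calls with the pairing block differed from the main fit only where named. Of the called list genes, otx1 and gata2a were not called with the block (limma, gata2a adjusted p = 0.052). Nor were they called without it on the same libraries, MYCN against MYC 1 to 4 (limma, adjusted p = 0.0939 and 0.0930). Their loss is therefore not a result of the pairing alone. The unknown depth in reads limits what can be said of Hox genes under 1 FPKM.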

Other observations

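The libraries MYCN 3, MYC 3 and MYC 7 were each the lowest of their own set of 4 for 9, 8 and 9 of the 15 tested Hox genes. All 3 were the lowest for hoxb5a, hoxb7a, hoxc4a, hoxd3a and hoxd4a, 33.3% of the tested Hox genes, against 29.2% of all tested genes. For hoxc6a, by contrast, MYCN 3 held the highest MYCN value.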
